A study of Mus musculus with 36 samples.

Results

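The interleukin-6 (IL-6) family genes described here are 10 of the 55291 genes in the count table: the ligands Il6, Lif, Osm and Il11, the receptor chains Il6st (gp130), Il6ra, Lifr and Osmr, the transcription factor Stat3 and its feedback inhibitor Socs3. They were chosen by name, and all 10 were found. The data are bulk RNA-seq counts of mouse knees from a study of protein kinase C (PKC) and Hippo signalling in knees with a damaged anterior cruciate ligament (ACL). Sham mice had no ACL injury, ACL vehicle mice were injured and given saline, and ACL_PKCi mice were injured and given a PKC inhibitor that the labels do not name. These groups are called sham, vehicle and inhibitor below. Each has 3 biological replicates, and all knees were collected at 24 h. Strain, sex, age, the way of injury and the dose are not given in the sources used here. The samples are labelled as knee joint tissue, while a protocol text of the same series calls the tissue of these libraries cartilage. All 8 chondrocyte markers, all 8 neutrophil markers and all 8 skeletal muscle markers had counts, so RNA of other cells than chondrocytes was present.

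IL-6 family cytokines share the signalling chain gp130. Each ligand first binds or recruits a second chain (IL-6 binds the IL-6 receptor, leukaemia inhibitory factor LIF the LIF receptor, and oncostatin M the oncostatin M or LIF receptor), and the assembled complex activates JAK kinases that phosphorylate STAT3. Phosphorylated STAT3 enters the nucleus and switches on target genes, among them Socs3, whose protein binds gp130 and shuts the signal down. In the joint these cytokines are known from synovial inflammation, cartilage matrix loss and bone remodelling. RNA counts do not measure phosphorylated STAT3 or secreted protein.

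Upstream sequences of the genes that were lowest in sham knees, Il6, Lif and Il11, and of Socs3 are shown because the text returns to these genes most often. They come from RefSeq windows on GRCm38.p6 (the mm10 build), which held 11 start sites for 9 of the 10 genes. Each is printed 5′ to 3′ on the gene's own strand, from 250 bases before the start site up to the first exon base of the gene in the GENCODE annotation. Capitals mark TGANTCA, the letters bound by AP-1 factors, or TTCNNNGAA, the letters bound by STAT dimers. Both motifs read the same on either strand.
Il6, chr5:30012864-30013113, plus strand: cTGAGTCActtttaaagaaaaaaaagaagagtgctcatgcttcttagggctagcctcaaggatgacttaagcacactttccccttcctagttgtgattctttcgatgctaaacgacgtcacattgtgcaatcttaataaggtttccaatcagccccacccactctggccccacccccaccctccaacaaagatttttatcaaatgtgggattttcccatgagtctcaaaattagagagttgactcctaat
Lif, chr11:4257318-4257556, plus strand: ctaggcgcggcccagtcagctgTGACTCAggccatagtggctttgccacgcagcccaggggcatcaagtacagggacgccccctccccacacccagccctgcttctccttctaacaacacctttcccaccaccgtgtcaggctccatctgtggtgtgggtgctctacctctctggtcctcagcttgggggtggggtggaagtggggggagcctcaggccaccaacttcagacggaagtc
Il11, chr7:4778142-4778391, minus strand: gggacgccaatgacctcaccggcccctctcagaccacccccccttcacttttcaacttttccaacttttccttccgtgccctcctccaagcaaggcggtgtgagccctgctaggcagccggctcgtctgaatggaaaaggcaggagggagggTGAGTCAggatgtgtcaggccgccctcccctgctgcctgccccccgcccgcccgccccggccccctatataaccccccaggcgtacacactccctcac
Socs3, chr11:117969452-117969616, minus strand: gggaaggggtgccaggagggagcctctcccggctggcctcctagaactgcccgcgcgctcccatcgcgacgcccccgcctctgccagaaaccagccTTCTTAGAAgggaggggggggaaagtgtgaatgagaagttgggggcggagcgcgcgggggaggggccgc
The letters TGANTCA stood 249 bases upstream of the start of Il6, 228 bases upstream of Lif, 98 bases upstream of the inner of the 2 Il11 starts, which lies within the counted span, and 3 bases downstream of the Osmr start. These are 4 of the 11 windows of 300 bases around the members' starts, and 7.81% of the 32851 such windows in RefSeq hold the motif. TTCNNNGAA was found in the Socs3 window alone among the 11, 154 bases upstream of a start that lies within the counted span of the gene, and in 8.30% of all windows. Neither the exact cyclic AMP element TGACGTCA nor the exact TATA letters TATAAA occurred in the 11 windows, and they occurred in 1.79% and 13.6% of all windows. Variants of these letters were not searched for, so the windows may still hold such elements. A match of letters is a description of the window and does not show that a factor was bound.

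Library depth limits every value below. The libraries held 124309584 to 202134770 counts each, but 91.2 to 98.2% fell on genes of the signal recognition particle RNA, and protein-coding genes received 1090559 to 4513462 counts. Values are given as normalised counts, which are counts after TMM scaling brought to the mean effective library size. The lowest shares of signal recognition particle RNA were in inhibitor 1 (91.5%) and inhibitor 2 (91.2%). These libraries also had the largest TMM factors, 1.73 and 3.64, against 0.633 to 1.01 in the others. A gene was called where its adjusted p (edgeR, all 13823 genes tested) was below 0.05. Of the 3 inhibitor libraries, 2 stood apart. Inhibitor 1 had summed normalised counts of 28627 for the muscle list, 2152 for the endothelial list and 2261 for the adipocyte list, against 2710, 418 and 343 in inhibitor 2 and 5425, 357 and 401 in inhibitor 3. Inhibitor 2 had the most protein-coding counts and the highest neutrophil sum of its group, 17715 against 9435 and 8074. All 3 inhibitor libraries had less chondrocyte signal (1527 to 4027) than the vehicle (6205 to 8893) and sham (6811 to 21252) libraries. Lower sums were not particular to chondrocytes. The fibroblast sums were also lower (22292 to 49282) than in vehicle (66202 to 75700) and sham (63863 to 111196) libraries. Most fibroblast markers did not follow their sum. Against vehicle, 5 of the 8 had a positive log2 fold change (median 0.10), while 0 of the 7 tested chondrocyte markers did. The B cell and skin cell sums were lower without overlap too. For the other lists, the ranges of inhibitor and vehicle libraries overlapped. In bulk tissue, fewer cells of a type and less RNA per cell cannot be told apart.

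Il6, Lif and Il11 had at most 1 count in any sham library, and the ligand genes had low to moderate counts in injured knees. Lif, which encodes leukaemia inhibitory factor (chromosome 11, 4257557 to 4272514), had raw counts of 0, 0 and 1 in sham 1 to 3, of 21, 17 and 12 in vehicle 1 to 3 and of 6, 73 and 13 in inhibitor 1 to 3. Values are given in this order of replicates throughout. Every injured library had more than every sham library. On the normalised scale the vehicle libraries held 34.9, 20.2 and 16.4 and the inhibitor libraries 4.50, 28.4 and 16.9. The 73 raw counts of inhibitor 2 thus came to 28.4 normalised counts, within the range of the vehicle group. The summed counts were 49.5 times sham in the vehicle group (95% exact binomial interval 8.48 to 1992, counting error only). The log2 fold change was 5.30 (SE 1.11, adjusted p = 0.0588), so the gene missed the threshold after injury alone.

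Il11, which encodes interleukin-11 (chromosome 7, 4772373 to 4782859), had no count in any sham library. Raw counts were 18, 15 and 29 in vehicle and 1, 214 and 30 in inhibitor knees. All 6 injured libraries had a count, but inhibitor 1 had only 1. Against a floor of 3 counts in each sham library, the vehicle mean was at least 6.67-fold higher and the inhibitor mean at least 9.41-fold higher. Neither passed the test (adjusted p = 0.501 and 0.172), with inhibitor values of 0.75, 83.4 and 38.9 normalised counts.

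Osm encodes oncostatin M, a cytokine made by neutrophils, macrophages and T cells (chromosome 11, 4236420 to 4241026). It was the only ligand with counts above 10 in every sham library, with raw counts of 16, 13 and 13. The vehicle libraries had 75, 33 and 55 and the inhibitor libraries 14, 167 and 22. Normalised counts were 18.6, 17.0 and 24.5 in sham, 125, 39.2 and 75.0 in vehicle and 10.5, 65.1 and 28.6 in inhibitor libraries. The vehicle libraries all lay above the sham libraries, while inhibitor 1 lay below them. The vehicle mean was 79.6 ± 42.9 (SD, n = 3) and the sham mean 20.1 ± 3.94, a 3.97-fold difference (log2 1.99, SE 0.62, adjusted p = 0.306). Summed neutrophil markers were lower in the vehicle (7476 to 10144) than in the sham libraries (14779 to 19077), and summed monocyte and macrophage markers were higher (831 to 1345 against 607 to 758). Not all markers followed the sums: of 8 in each list, 2 neutrophil and 7 monocyte and macrophage markers had a positive log2 fold change. The part of these cell types in the Osm values was not tested.

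Il6 (chromosome 5, 30013114 to 30019981) had too few counts to pass the filter and is described by its raw counts. The sham libraries had 1, 0 and 0, the vehicle libraries 10, 3 and 0, and the inhibitor libraries 0, 16 and 0. One library thus held 10 of the 13 vehicle counts, another held all 16 inhibitor counts, and 5 of the 9 libraries had none. The groups overlapped. The ratio of summed counts was 12.9 for vehicle to sham (95% exact binomial interval 1.93 to 547) and 7.38 for inhibitor to sham (1.15 to 309), intervals that leave out the spread between knees. With no filter on low counts, its adjusted p was 0.648, 0.729 and 0.639 for vehicle against sham, inhibitor against vehicle and inhibitor against sham.

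The receptor genes had at least 21 raw counts in every library, and none was called in the main edgeR fit. That fit had all 9 libraries, the filter on low counts and no term besides the groups. Il6st encodes gp130, the chain all these cytokines share (chromosome 13, 112464070 to 112510086). Its normalised counts were 364, 431 and 466 in sham, 621, 486 and 491 in vehicle and 584, 422 and 441 in inhibitor libraries. The vehicle libraries all exceeded the sham libraries, by little: the log2 fold change was 0.34 (SE 0.20, adjusted p = 0.703).

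Il6ra encodes the IL-6 binding chain (chromosome 3, 89864059 to 89913196). It had 48.8, 74.7 and 119 normalised counts in sham, 110, 70.1 and 135 in vehicle and 55.5, 103 and 63.6 in inhibitor libraries. The 3 groups overlapped, and the spread within sham, from 48.8 to 119, was as wide as the differences between groups. Lifr encodes the LIF receptor chain (chromosome 15, 7090614 to 7197489) and had 266, 346 and 302 in sham, 209, 420 and 233 in vehicle and 326, 173 and 275 in inhibitor libraries. These groups overlapped too, and the vehicle mean of 287 ± 115 (SD, n = 3) lay within the sham range.

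Osmr encodes the chain that pairs with gp130 in the oncostatin M receptor (chromosome 15, 6813577 to 6874969). Its normalised counts were 36.1, 30.2 and 39.6 in sham, 83.1, 36.9 and 51.8 in vehicle and 113, 58.8 and 70.1 in inhibitor libraries. The inhibitor libraries all lay above the sham libraries, while the vehicle libraries overlapped them. Inhibitor against sham was 2.28-fold (log2 1.19, SE 0.36, adjusted p = 0.0764), short of the threshold. With a term for muscle signal in the fit the difference passed (log2 1.41, adjusted p = 0.0101), as it did by DESeq2 (adjusted p = 0.0480).

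**Figure D1:**
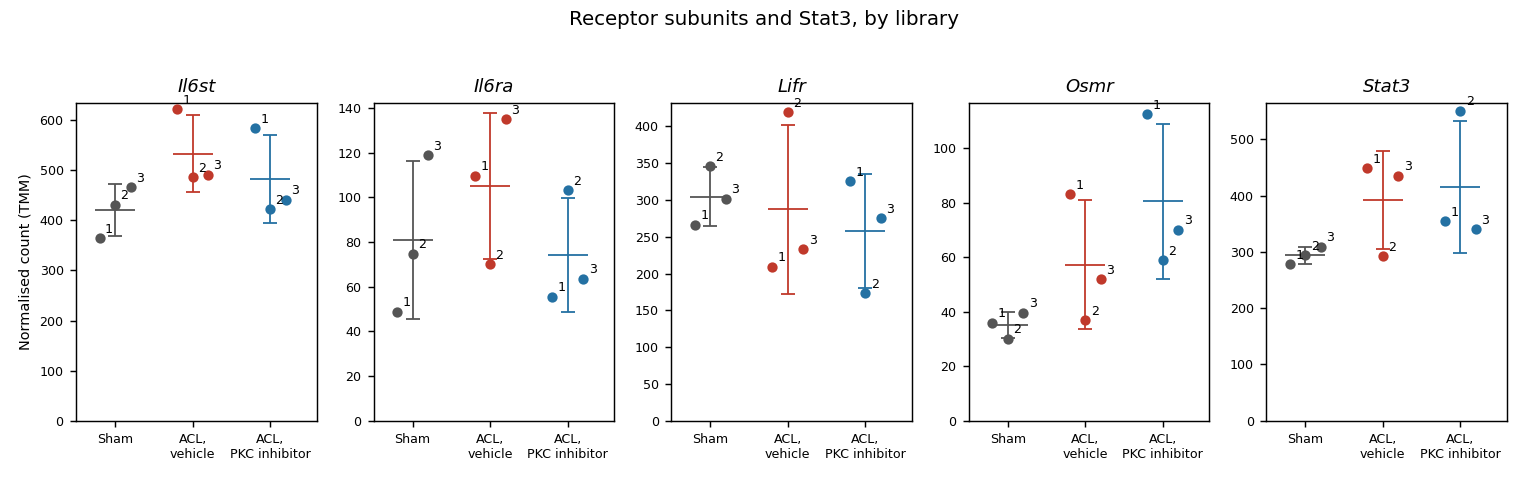
Normalised counts of the 4 receptor genes and Stat3 in each library, with group mean and SD as bar and replicate numbers beside the points. Il6ra and Lifr overlap across all 3 groups.

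Stat3, the transcription factor downstream of gp130 (chromosome 11, 100885098 to 100939540), had 278, 294 and 309 normalised counts in sham, 449, 292 and 435 in vehicle and 354, 551 and 340 in inhibitor libraries. Vehicle 2 lay within the sham range, and the other 5 injured libraries lay above it. The log2 fold change against sham was 0.42 (SE 0.23, adjusted p = 0.669) for vehicle and 0.50 (SE 0.23, adjusted p = 0.261) for inhibitor.

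Socs3 (chromosome 11, 117966079 to 117970047) was separated between sham and both injured groups. Normalised counts were 66.3, 80.0 and 75.4 in sham, 399, 204 and 299 in vehicle and 81.8, 425 and 225 in inhibitor libraries. Each injured library exceeded each sham library, although inhibitor 1, at 81.8, did so by less than 2 normalised counts. Vehicle was 4.06-fold sham (log2 2.02, SE 0.56, adjusted p = 0.289) and inhibitor 3.32-fold (log2 1.73, SE 0.55, adjusted p = 0.137). Neither passed the threshold in this edgeR fit, whereas both did by DESeq2 (adjusted p = 0.00240 and 0.00607) and by edgeR with no filter on low counts (0.00421 and 0.00445).

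Against sham, 0 of the 9 members tested were called in vehicle knees (edgeR), while 0.304% of all tested genes were called and 0.282% were called higher. At an unadjusted p below 0.05 the members numbered 4 of 9 (Lif, Osm, Il11 and Socs3), beside 8.28% of all genes. Vehicle and sham libraries did not overlap for 5 members, all higher after injury (Lif, Osm, Il11, Il6st and Socs3), and 8.20% of all genes were higher without overlap. The median log2 fold change was 0.69 over the 9 members, also with Il11 at its lower bound, and -0.02 over all genes tested. Lif and Il11 passed the filter on low counts only through the injured libraries, so these counts describe the members and are not support for a change.

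The calls of members after injury changed with the setting. With all 9 libraries kept, DESeq2 called Lif, Il11 and Socs3 (adjusted p = 0.00806, 0.0347 and 0.00240). Also with all 9, edgeR called Lif, Osm, Il11 and Socs3 with no filter, Lif and Il11 with a term for muscle signal, and Lif with protein-coding genes alone. Without inhibitor 1, the same comparison of vehicle with sham called Lif, Osm, Il11 and Socs3, with adjusted p = 0.00327, 0.0198, 0.000454 and 0.000383 (log2 5.29 for Lif, 1.99 for Osm, 2.02 for Socs3). These 4 were also called with vehicle and sham libraries alone in the fit. Without inhibitor 2, Lif (adjusted p = 0.0369) and Socs3 (0.0310) were called. Leaving out inhibitor 3 or any 1 sham or vehicle library called none. Why the calls moved was not tested.

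**Figure D2:**
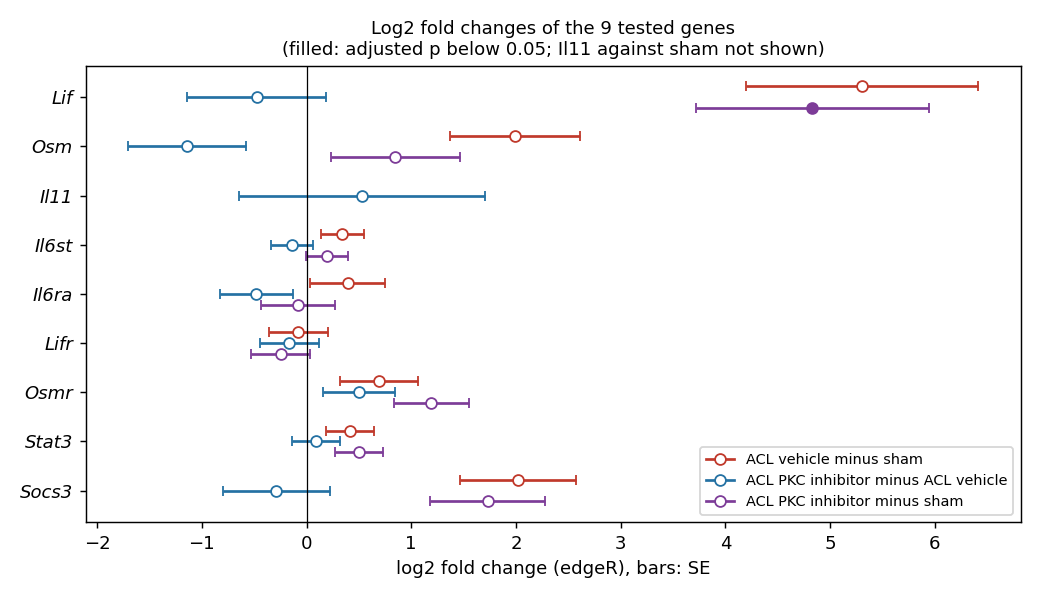
Log2 fold change with its standard error for the 9 tested members in the 3 comparisons; filled points have an adjusted p below 0.05. Only Lif in inhibitor against sham is filled, at 4.83; Il11 is not drawn against sham, where it had no count.

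No member passed the test between inhibitor and vehicle knees. Of 9 tested, 0 were called by edgeR, DESeq2 or any other setting run, and 0 had an unadjusted p below 0.05, beside 0.731% of all genes called and 13.4% at that unadjusted p. The 2 groups overlapped for each of the 9, whereas 18.9% of all genes had no overlap. The largest difference in a well-counted member was in Osm, 34.7 ± 27.8 normalised counts (SD, n = 3) against 79.6 ± 42.9 in vehicle, which is -1.14 on the log2 scale (SE 0.56, adjusted p = 0.415). Lif was at -0.48 (SE 0.67), Socs3 at -0.29 (SE 0.51), Il6ra at -0.48 (SE 0.35), Osmr at 0.50 (SE 0.35) and Il11 at 0.53 (SE 1.17). Il6st, Lifr and Stat3 lay between -0.16 and 0.09 (SE 0.20 to 0.28). The standard errors of the ligands and Socs3 are wide enough that these libraries cannot show whether the inhibitor altered them.

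The inhibitor libraries differed among themselves, and not in the same order for each member. Lif, Osm, Il11, Il6ra and Socs3 were highest in inhibitor 2, intermediate in inhibitor 3 and lowest in inhibitor 1. Osmr, Il6st and Lifr were instead highest in inhibitor 1 and lowest in inhibitor 2. Stat3 followed neither order: it was highest in inhibitor 2 and lowest in inhibitor 3. For Socs3 the highest and lowest inhibitor libraries were 425 and 81.8 normalised counts, and for Il11 they were 83.4 and 0.75. Inhibitor 1 was the library with the highest muscle, endothelial and adipocyte sums, and inhibitor 2 the one with the highest neutrophil sum of the group. Their part in these orders was not tested. Leaving out inhibitor 1 turned the Socs3 difference from vehicle from -0.29 to 0.14, and leaving out inhibitor 2 turned that of Il11 from 0.53 to -0.63.

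Against sham, Lif was the 1 member called by edgeR in inhibitor knees, where 1.27% of all genes were called higher and 3.95% in either direction. Its summed counts were 42.4 times sham (95% exact binomial interval 7.42 to 1693), and the fitted log2 value was 4.83 (SE 1.11, adjusted p = 0.0268). The call was lost without sham 1 (adjusted p = 0.121), sham 2 (0.0928), sham 3 (0.0551) or inhibitor 2 (0.104). It held without any 1 of the other 5 libraries and by DESeq2 (0.00698). With inhibitor and sham libraries alone in the fit, Lif and Il11 fell below the filter on low counts, and 0 of the 7 members tested were called. Both genes passed the filter only through injured libraries, so the member counts that follow are a description and not support for a change. Unadjusted p was below 0.05 for 5 members (Lif, Il11, Osmr, Stat3 and Socs3), beside 18.0% of all genes. The same 5 members were higher than sham with no overlap, as were 11.2% of all genes. For 2 of them the gap was small: inhibitor 1 had 0.75 normalised counts of Il11 against 0 in sham, from 1 raw count. For Socs3 it had 81.8 against 80.0 in the highest sham library. Other settings called more members: Lif, Il11, Osmr and Socs3 by DESeq2 and with no filter, Lif, Il11 and Osmr with the muscle term, and Lif, Il11 and Socs3 without inhibitor 1 (log2 2.16 and adjusted p = 0.000251 for Socs3). This comparison shares its sham libraries with the first and its inhibitor libraries with the second, so the 3 are not independent.

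Between genes, levels were compared as normalised counts per kilobase of exon. In sham knees Il6st was highest at 37.9 (range 32.8 to 42.0), followed by Stat3 at 30.8 (29.2 to 32.5), Lifr at 28.3 (24.7 to 32.1) and Socs3 at 25.6 (22.9 to 27.7). Every Il6st value lay above every Stat3 value, but Stat3 overlapped Lifr, and Lifr overlapped Socs3, so these neighbours did not differ beyond their spread. Il6ra (9.35, range 5.65 to 13.7) and Osm (8.83, 7.50 to 10.8) formed a lower, overlapping pair, and Osmr followed at 2.91 (2.49 to 3.27). Lif and Il11 were at 0.14 and 0 normalised counts per kilobase. Il6 was left out for its low counts.

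In vehicle knees Socs3 stood first at 104 per kilobase (70.7 to 138), above every library of Il6st (48.0, range 43.8 to 56.0). Stat3 (41.2, 30.7 to 47.1), Osm (35.0, 17.3 to 54.9) and Lifr (26.7, 19.4 to 38.9) overlapped one another. Il11 (14.0, 8.57 to 19.0) overlapped Il6ra (12.1, 8.12 to 15.6), while Lif (5.48, 3.76 to 8.02) and Osmr (4.73, 3.04 to 6.86) were the lowest of these 9 genes and overlapped. In both groups every library of Il6st and Lifr lay above every library of Lif and Il11. In inhibitor knees Socs3 again had the highest mean, 84.3, but its range of 28.3 to 147 covered Il6st (43.5, 38.0 to 52.6), Stat3 (43.6, 35.7 to 57.8) and part of Lifr (23.9, 16.1 to 30.2). Il11 ranged there from 0.36 to 40.1 per kilobase and Osm from 4.62 to 28.6.

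**Figure D3:**
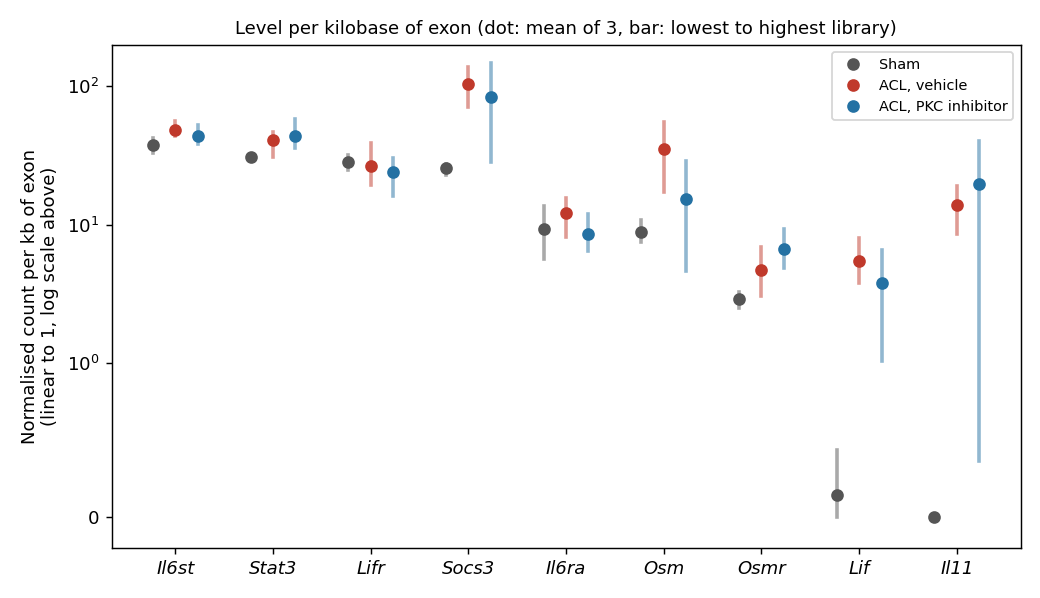
Normalised counts per kilobase of exon for 9 of the 10 genes (without Il6) in the 3 groups, on an axis that is linear near 0 and logarithmic above; dots are means and bars run from the lowest to the highest of 3 libraries. Socs3 lies above Il6st in vehicle knees, and Il11 is at 0 in sham.

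Other genes of the pathway were read from lists of names. Of 13 other IL-6 family ligands and receptors, 5 had enough counts to be tested and none was called in any comparison. Clcf1, a ligand of the ciliary neurotrophic factor receptor, had 8.19 ± 4.86 normalised counts (SD, n = 3) in sham, 30.3 ± 9.22 in vehicle and 16.3 ± 12.8 in inhibitor knees (vehicle against sham log2 1.94, SE 0.74, adjusted p = 0.434), and it shares exon sequence on its strand with another gene model. Ebi3, a subunit of interleukin-27, lay the other way at 24.6 ± 8.88, 10.3 ± 2.65 and 6.59 ± 5.61 (log2 -1.24, SE 0.67, adjusted p = 0.658). Il11ra2, a near-identical copy of the interleukin-11 receptor gene Il11ra1, was at 53.4, 32.7 and 39.4 and is uncertain because reads of both copies were counted for each. The 8 untested genes were Ctf1, Ctf2, Cntf, Cntfr, Il27, Il27ra, Il31 and Il31ra, with summed raw counts of at most 33 in any group and none for Il31.

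None of the 13 JAK, STAT and adaptor genes was called, and their median log2 fold changes of -0.04, 0.05 and 0.03 in the 3 comparisons lay beside -0.02, 0.04 and 0.03 for all genes. The lowest p after injury belonged to Gab1, an adaptor that links gp130 to the MAP kinase pathway (101 normalised counts in sham and 154 in vehicle, adjusted p = 0.473). Jak2, a gp130-bound kinase, was at 157 and 209 (adjusted p = 0.703), and Stat5b at 223 and 166 (adjusted p = 0.655).

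The 12 genes of feedback, receptor shedding and Il6 mRNA regulation also had no call in the 3 comparisons of the main edgeR fit, with medians of 0.30, -0.08 and 0.19. Socs1, a JAK inhibitor related to Socs3, was at 8.04 ± 1.44 normalised counts (SD, n = 3) in sham, 30.6 ± 18.5 in vehicle and 12.0 ± 7.19 in inhibitor knees (vehicle against sham log2 1.91, adjusted p = 0.350). Zc3h12a, which encodes the RNase regnase-1 that degrades Il6 mRNA, was at 26.3, 52.2 and 35.5 (adjusted p = 0.522). Adam10, a protease that can shed the IL-6 receptor, was the listed gene nearest to a call between inhibitor and vehicle. It had 266 ± 10.4 in sham, 358 ± 8.57 in vehicle and 207 ± 54.0 in inhibitor knees, with no overlap between the last 2 groups (log2 -0.80, SE 0.20, adjusted p = 0.0875). It was called lower there by DESeq2, with the muscle term and without inhibitor 3.

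Of genes known to respond to STAT3, 2 were called in vehicle and 6 in inhibitor knees against sham, all higher. Of 31 listed, 30 were tested and 25 had a positive log2 fold change in vehicle against sham, with a median of 0.46, beside -0.02 for all genes. The 2 called were Serpina3n and Saa3, where 0.282% of all genes were called higher. A further 10 were higher with no overlap, which makes 12 of 30, beside 8.20% of all genes. The 6 called in inhibitor knees were Serpina3n, Saa3, Timp1, Tnfaip6, Hif1a and Il1r1, where 1.27% of all genes were called higher. The list was chosen with results of these data known, so these shares describe it and call nothing particular to it. Many of these genes also respond to other inflammatory factors such as NF-kB and AP-1, so the list is not specific to gp130.

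Serpina3n, which encodes a serpin released in acute inflammation, rose from 31.6 ± 9.01 normalised counts (SD, n = 3) in sham to 302 ± 119 in vehicle (9.37-fold, adjusted p = 0.000553) and 220 ± 39.1 in inhibitor knees (6.88-fold, adjusted p = 0.00120). It was called in both comparisons with sham under each of the 16 alternative settings run, but it has close paralogues that may share its reads. Saa3, an acute-phase serum amyloid gene, passed the filter only through injured libraries, with no count in sham and 47.5 ± 29.7 in vehicle and 26.0 ± 18.4 in inhibitor knees. Against a floor of 3 counts per sham library these were at least 10.9-fold (adjusted p = 0.0326) and at least 5.96-fold (adjusted p = 0.0175) higher.

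Timp1, an inhibitor of matrix metalloproteinases, was at 32.4 ± 1.17, 358 ± 91.1 and 232 ± 152 normalised counts in sham, vehicle and inhibitor knees, and it was called in inhibitor against sham (7.17-fold, adjusted p = 0.0306) but not in vehicle against sham (adjusted p = 0.0577). Tnfaip6, which encodes a hyaluronan-binding protein made in inflamed joints, was at 6.25, 61.4 and 36.9 (inhibitor 6.15-fold, adjusted p = 0.0480; vehicle 0.0726). Hif1a, the hypoxia-responsive factor, was 2.95-fold sham in inhibitor knees (adjusted p = 0.0426) and shares exon sequence on its strand with another gene model. Il1r1, the interleukin-1 receptor, was 2.64-fold (adjusted p = 0.0314). Cebpb (66.0, 195 and 156), Junb (78.1, 334 and 207) and Il4ra (85.2, 327 and 240) had the next lowest p after injury, with adjusted p = 0.120, 0.120 and 0.173.

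The count of listed STAT3-responsive genes called moved with the setting and with single libraries. Vehicle against sham gave 10 by DESeq2, 11 with no filter, 10 with the 2 groups alone and 8 with the muscle term, all higher. It gave 10 without inhibitor 1, 8 without inhibitor 2 and 1 without sham 1, sham 2, vehicle 1, vehicle 3 or inhibitor 3. Serpina3n was called in each of these.

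Inhibitor against sham gave 9 called higher by DESeq2, 12 with no filter, 2 with the 2 groups alone and 7 with the muscle term. It gave 10 higher without inhibitor 1, 3 without inhibitor 2, 1 without sham 1 or sham 2, 2 without sham 3, vehicle 1 or vehicle 3, and 4 without vehicle 2 or inhibitor 3. Single genes were called lower: Lcn2 with no filter and without inhibitor 2, Myc with the muscle term and Vegfa without inhibitor 1. These 3 are named because they were the only lower calls of the list in that comparison. Between inhibitor and vehicle, edgeR and DESeq2 called 0 of the 30 (3 by edgeR at an unadjusted p below 0.05, beside 13.4% of all genes). There Myc was called lower with no filter, with the muscle term and without inhibitor 3. Of the 30, 23 had a negative log2 fold change, with a median of -0.18 beside 0.04 for all genes. As this comparison shares the vehicle libraries with that of vehicle and sham, the opposite signs are not independent of one another.

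**Figure D4:**
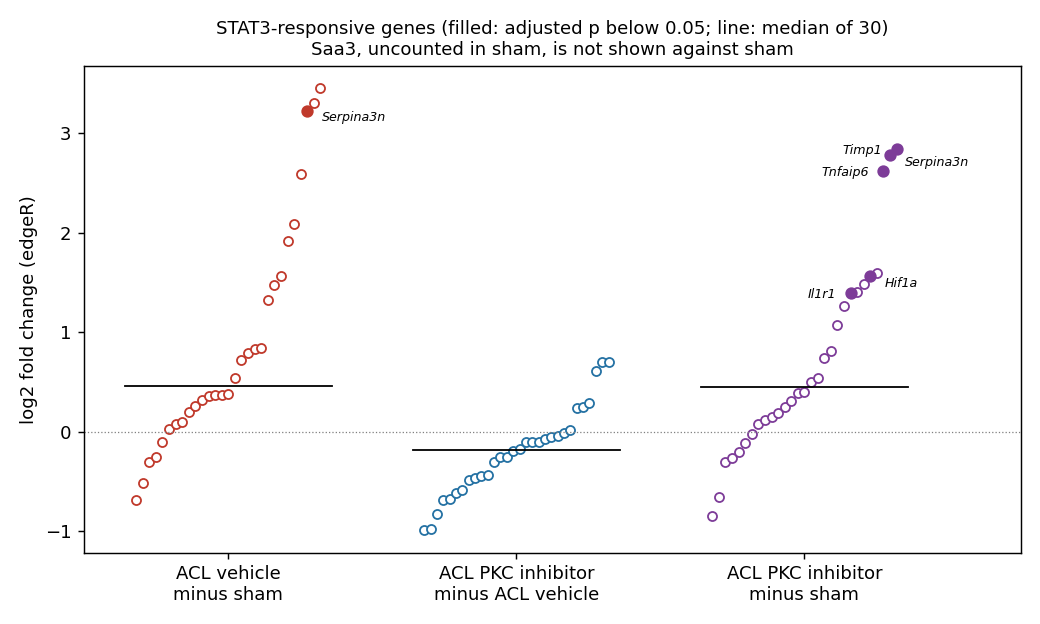
Log2 fold changes of the 30 tested STAT3-responsive genes in the 3 comparisons, with the median as a line and called genes filled; Saa3 is not drawn against sham. The medians are 0.46, -0.18 and 0.45 for vehicle against sham, inhibitor against vehicle and inhibitor against sham.

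Among 9179 protein-coding genes of sufficient level, those whose values followed Socs3 most closely over the 9 libraries were Cxcl3 (Pearson r = 0.98 across libraries), a neutrophil-attracting chemokine, then Surf4, Snai1, Tnfaip6 and Junb (each r = 0.97). Cxcl3 had no count in sham and means of 102 and 37.8 normalised counts in vehicle and inhibitor knees. Osmr had other nearest neighbours: Letmd1 (r = 0.94), Mprip and Utp11 (each 0.93), Rock2 and Mrpl49 (each 0.92). These values were selected as the highest of many and describe 9 libraries that share their group means and depth, so they carry no test.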

How the data were processed

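Knee RNA was isolated with TRIzol and, after removal of ribosomal RNA, sequenced in read pairs, per the labels' protocols. The deposited values are raw counts per gene name, made by the authors with featureCounts 2.0.1 on GENCODE M25 exons, by strand, per the file headers. A read with several alignments added 1 count at each, and a read over overlapping genes added 1 to each gene, so near-identical genes share reads. HISAT2 and mm10 are named in the submitters' processing notes, and the HISAT2 version is not given in the sources used here. No member shared exon bases with another gene on its strand; Il6ra and Stat3 do on the opposite strand. Positions run from the first to the last exon base in the header's annotation. Columns were matched to samples by name; their order differs from that in the header's command. The 27 columns of the other tables match no label and were not used, which left 9 of 36 libraries.

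All 9 libraries were fitted together in edgeR 4.0.16 (R 4.3.3) with filterByExpr, TMM scaling and robust quasi-likelihood tests, two-sided, with Benjamini-Hochberg adjustment over 13823 genes. Figures and sequence searches used Python 3.11.15. An SE is the log2 value over the root of its F statistic. The labels call the replicates biological. In simulated counts for vehicle against sham on 13823 genes, 81.0% of 4-fold and 98.0% of 8-fold changes were recovered, and 14 unchanged genes were called. The changed genes were drawn only from genes above a minimum mean count, so these shares do not cover genes of low count such as Il6. They are shares over the drawn genes and do not give the power for any 1 member. Alternatives were DESeq2 1.42.0, no filter, fewer groups or genes in the fit, a muscle term, a replicate term and leaving out libraries.

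Members, lists and markers were chosen with earlier results of these data known. Named list genes are those called in any comparison and the 3 others per list with the lowest p in vehicle against sham. Genes of like pattern are the 5 of highest Pearson r of log2 CPM (prior count 2), among protein-coding genes with a mean CPM of at least 5. Other marker lists, for fibroblasts, osteoblasts and T, B, red blood, skin and platelet cells, were summed in the same way.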

Additional observations from a re-analysis of the deposited data

How the results depend on the processing

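Counts of called genes moved with most settings. For vehicle against sham, 42 genes were called, against 155 by DESeq2, 262 with no filter, 291 with the 2 groups alone, 200 with a muscle term and 301 without inhibitor libraries 1 and 2 (an alternative chosen after seeing the data); leaving out 1 library gave 1 to 234. Inhibitor against vehicle had 101, against 355 by DESeq2, 554 with no filter, 3 with the 2 groups alone, 364 with a muscle term and 20 without inhibitor 1 and 2; leaving out 1 library gave 0 to 256. Inhibitor against sham had 546, against 885, 1056, 198, 1143 and 174 in the same order; leaving out 1 library gave 141 to 841. With protein-coding genes alone the counts were 52, 76 and 499. The cause was not tested.

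With the replicate block the counts were 24, 103 and 420, the listed STAT3-responsive genes called were 1, 0 and 3, no member was called (Lif in inhibitor against sham had adjusted p = 0.0517), and Il11 in inhibitor against vehicle turned to -0.18. Same-numbered libraries correlated at -0.24 to 0.07, and 2 of 9 libraries correlated best with their own number, so the numbers were not taken to pair the samples.

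The split of vehicle against sham into higher and lower calls went from 39 and 3 to 125 and 30 by DESeq2, 164 and 98 with no filter and 109 and 91 with the muscle term. That of inhibitor against vehicle went from 4 and 97 to 50 and 305 by DESeq2, 175 and 379 with no filter and 65 and 299 with the muscle term. Of the members' log2 fold changes, some turned sign, none of them called. With the muscle term, Lifr in vehicle against sham was 0.13 and Il11 in inhibitor against vehicle -0.50. Without inhibitor 1 and 2, Stat3 in inhibitor against vehicle was -0.20, and Lif in inhibitor against sham missed the threshold (adjusted p = 0.0554). Leaving out 1 library in turn gave a range across 0 for Lifr in vehicle against sham (-0.44 to 0.10). The same held in inhibitor against vehicle for Lifr (-0.38 to 0.19), Stat3 (-0.19 to 0.21), Il11 (-0.63 to 1.12) and Socs3 (-1.0 to 0.14). It also held in inhibitor against sham for Osm (-0.080 to 1.30) and Il6ra (-0.42 to 0.28). With inhibitor and sham libraries alone, Lif and Il11 fell below the filter on low counts and have no value. At this depth, Il6 could not be compared between groups.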
